A study of Saccharomyces cerevisiae with 35 samples.

Results

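BC187 is a diploid vineyard isolate of Saccharomyces cerevisiae from the Wine/European lineage, and the data here are its transcriptome before salt and 30 min after NaCl was added. The comparison rests on 6 of 35 RNA-seq libraries, chosen by strain and time in the sample labels: 3 unstressed and 3 at 30 min. Each unstressed culture in YPD, a rich glucose medium, was sampled in growth, brought to 0.7 M NaCl and sampled again, so that the libraries with the same replicate number come from the same culture. The labels name 0.7 M NaCl for the unstressed samples too, but the labels' growth protocol places that collection before the salt. The other libraries hold BC187 at 3 h, the laboratory strain BY4743, the West African strain NCYC3290 and the North American oak isolate YPS128, all diploid, in the same medium and salt. No gene was altered in any BC187 group, and BC187 is a single isolate of its lineage, so the values belong to this strain. YPS128 has 2 libraries at 30 min rather than 3.

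High external NaCl draws water out of yeast cells and loads them with sodium. The high osmolarity glycerol (HOG) pathway, a kinase cascade ending in Hog1, raises synthesis of the compatible solute glycerol, and the Ena pumps carry sodium out. Msn2 and Msn4, which bind the stress response element, and Hsf1, which binds the heat shock element, activate a wider set of defence genes, while genes for making ribosomes are commonly repressed during acute stress. The comparison asks which of these programs had moved in the vineyard strain by 30 min, and where its response differed from those of the other strains.

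The 6 libraries held between 4419322 and 5253590 reads counted on genes, and the 10 most counted genes took 14.2% to 17.4% of a library. URA3 and LEU2, marker genes that the laboratory strain has lost, had 266 to 550 and 209 to 400 counts in the BC187 libraries and 0 in BY4743. Among haploid-specific and mating genes, which diploid cells keep low, MF(ALPHA)1, the alpha pheromone gene, reached at most 2 counts in a library. FUS1, a cell fusion gene, had 10, 6 and 9 counts unstressed and 43, 65 and 53 in salt. Levels of the other genes of this list are not given here. Of 18 tested, 8 were called higher at 30 min (44.4%, beside 18.2% of all genes) and none lower. Replicate 2 stood apart from the others. The chi-square per degree of freedom between unstressed libraries was 17.0 and 19.3 for pairs with replicate 2 and 5.82 for the pair without it, and at 30 min it was 8.97 and 10.7 against 4.29. Several results that turn on this culture are also given without it.

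At 30 min, 2037 of the 5997 genes tested differed from their unstressed level (34%) by edgeR's quasi-likelihood test with a Benjamini-Hochberg adjusted p under 0.05. Of these, 1092 were higher (18.2% of the genes tested) and 945 were lower (15.8%). The higher genes moved further. Their median log2 fold change was 1.03 against -0.70 for the lower genes, 566 of them rose at least 2-fold (9.44% of genes tested) while 221 fell by as much (3.69%), and 52 rose at least 16-fold while none fell that far. The values of the 3 salt libraries lay above all 3 unstressed libraries for 1453 genes (24.2%) and below them for 1533 (25.6%), and 1070 of the genes called higher and 903 of those called lower were among these. The median over all genes was -0.03 on the log2 scale. Upper-quartile scaling turned the balance to 1027 higher and 1113 lower. Without replicate 2 the calls came to 1287 in all, 490 of them lower. The p-values rest on a spread between cultures that was pooled over the 34 fitted libraries of the 4 strains.

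The regions upstream of some leading genes are shown because many leading genes carry the binding motifs of the stress factors named above. Each is 250 bases of the S288c genome R64, from 400 to 151 bases before the coding start, read 5′ to 3′ on the coding strand. Capitals mark the stress response element, AGGGG or CCCCT, and the heat shock element in its 8-base form, GAANNTTC or TTCNNGAA, which may overlap one another. BC187's own bases were not read, and a match is a description of the letters only. The first 4 genes are picked from the 12 with the largest rises and are not the top 4. Of the 11 of those 12 that have a window, 10 held a stress response element (90.9%) and 4 a heat shock element (36.4%). GPD1 and ENA1 encode the glycerol and sodium steps described further on.
HSP12, chrVI:106856-107105, plus strand: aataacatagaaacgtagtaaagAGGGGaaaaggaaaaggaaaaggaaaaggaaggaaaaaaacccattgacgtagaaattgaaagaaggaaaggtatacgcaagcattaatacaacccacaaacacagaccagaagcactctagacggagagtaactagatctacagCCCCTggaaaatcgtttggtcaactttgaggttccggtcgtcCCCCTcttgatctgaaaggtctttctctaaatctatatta
SSA4, chrV:364189-364438, plus strand: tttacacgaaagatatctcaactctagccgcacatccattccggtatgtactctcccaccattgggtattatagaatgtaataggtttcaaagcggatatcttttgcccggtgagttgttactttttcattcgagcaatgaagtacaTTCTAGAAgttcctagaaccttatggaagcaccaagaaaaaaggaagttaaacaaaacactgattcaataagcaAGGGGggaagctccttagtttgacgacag
BTN2, chrVII:772054-772303, plus strand: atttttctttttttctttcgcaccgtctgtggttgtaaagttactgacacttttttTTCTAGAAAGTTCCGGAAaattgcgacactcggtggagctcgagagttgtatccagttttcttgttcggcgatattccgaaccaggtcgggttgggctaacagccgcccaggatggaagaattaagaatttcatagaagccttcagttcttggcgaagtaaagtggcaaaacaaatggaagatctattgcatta
HSP42, chrIV:806221-806470, plus strand: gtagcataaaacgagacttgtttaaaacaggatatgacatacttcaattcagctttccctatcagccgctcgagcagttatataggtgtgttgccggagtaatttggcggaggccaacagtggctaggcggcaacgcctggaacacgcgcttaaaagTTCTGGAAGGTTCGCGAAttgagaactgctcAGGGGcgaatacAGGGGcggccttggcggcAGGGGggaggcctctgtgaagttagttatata
GPD1, chrIV:411425-411674, plus strand: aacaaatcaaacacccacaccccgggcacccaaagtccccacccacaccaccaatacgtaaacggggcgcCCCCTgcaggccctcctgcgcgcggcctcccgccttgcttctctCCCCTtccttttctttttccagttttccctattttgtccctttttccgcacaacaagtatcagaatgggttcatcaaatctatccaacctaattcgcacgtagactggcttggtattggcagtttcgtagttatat
ENA1, chrIV:538618-538867, minus strand: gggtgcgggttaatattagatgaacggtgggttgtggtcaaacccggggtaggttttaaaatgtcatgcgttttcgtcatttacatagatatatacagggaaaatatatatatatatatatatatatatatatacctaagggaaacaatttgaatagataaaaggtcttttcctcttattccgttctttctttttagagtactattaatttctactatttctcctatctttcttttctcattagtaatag

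HSP12 has 3 stress response elements and no heat shock element in this window, BTN2 has the reverse, and HSP42 has 3 of each. SSA4 holds 1 of each, GPD1 holds 2 stress response elements, and ENA1 holds neither. Among the windows of all 5755 genes that have one, 20.3% held a stress response element and 19.7% a heat shock element. Among 537 genes called at least 2-fold higher the shares were 40.0% and 21.2%, and among 46 called at least 16-fold higher 67.4% and 28.3%. Among 211 genes called at least 2-fold lower they were 19.0% and 21.8%. The share holding the first motif thus went up with the size of the rise, while that of the second moved less. In the chaperone list, described next, 15 of the 19 members called higher held a heat shock element (78.9%) and 12 a stress response element (63.2%). Of the 11 other members 6 held the former (54.5%) and 1 the latter (9.09%).

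Molecular chaperones and heat shock genes were among the most strongly raised genes of BC187. Of 30 in the list, 19 were called higher (63.3%, beside 18.2% of all genes) and 1 lower (3.33%, beside 15.8%). The list's median log2 fold change was 1.93 beside -0.03 over all genes. The medians of the 3 cultures were 1.84, 2.07 and 1.64. All 3 salt libraries exceeded all 3 unstressed ones for 22 of the 30 members, beside 24.2% of all genes. SSA4, a stress-induced cytosolic Hsp70, went from 11.3, 9.07 and 16.2 CPM (read counts scaled to the TMM-adjusted size of each library) in unstressed replicates 1, 2 and 3 to 2201, 2353 and 2260 CPM in salt. The replicates agree closely at 30 min, and the fitted log2 fold change was 7.57 ± 0.32 (SE; edgeR quasi-likelihood adjusted p = 1.12e-17).

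HSP12, a small membrane-associated stress protein, had the largest rise of any gene in the named set. It was nearly silent before salt, at 1.03, 1.37 and 0.41 CPM, and stood at 320, 721 and 324 CPM after it. Its log2 fold change of 8.90 ± 0.51 (edgeR adjusted p = 2.38e-14) rests on 5, 5 and 2 unstressed counts, and replicate 2 was the high library at 30 min. BTN2, which gathers misfolded proteins for sequestration and later refolding, went from 32.5, 12.9 and 18.3 to 1772, 1633 and 1372 CPM, a log2 fold change of 6.27 ± 0.41. HSP42, a small heat shock protein that acts in the same sequestration, went from 45.7, 30.0 and 24.1 to 1691, 1948 and 1667 CPM (5.72 ± 0.40). The groups of these genes lay far apart compared with their spread.

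Disaggregation and co-chaperone genes rose with them. HSP104, the disaggregase that pulls proteins out of aggregates, went from 244, 167 and 140 to 1944, 1863 and 1672 CPM, with a log2 fold change of 3.31 ± 0.26. SIS1, the Hsp40 that brings clients to Hsp70, went from 122, 51.7 and 113 to 1430, 1375 and 1301 CPM (3.89 ± 0.24). HSP82, the stress-induced Hsp90, went from 168, 59.4 and 117 to 1654, 1568 and 1535 CPM (3.84 ± 0.32). Unstressed replicate 2 was the lowest library for these last 2 genes, which widens their spread before salt but not after it. The mitochondrial disaggregase HSP78 (log2 fold change 5.27), the Hsp40 APJ1 (5.06) and the Hsp70 nucleotide exchange factor SSE2 (4.78) were also called higher. Much of the protein folding machinery that cells express at all times was not: YDJ1 (0.31), SSA2 (0.47) and SSE1 (0.37) missed the threshold, as did SSC1, HSP60, SSB1 and SSB2. The 1 member called lower was HSP30, a plasma membrane heat shock protein, at -1.48 ± 0.56 (edgeR adjusted p = 0.0446), with unstressed CPM of 110, 105 and 24.9 and salt CPM of 27.3, 33.3 and 20.2, so that its groups overlap.

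**Figure D1:**
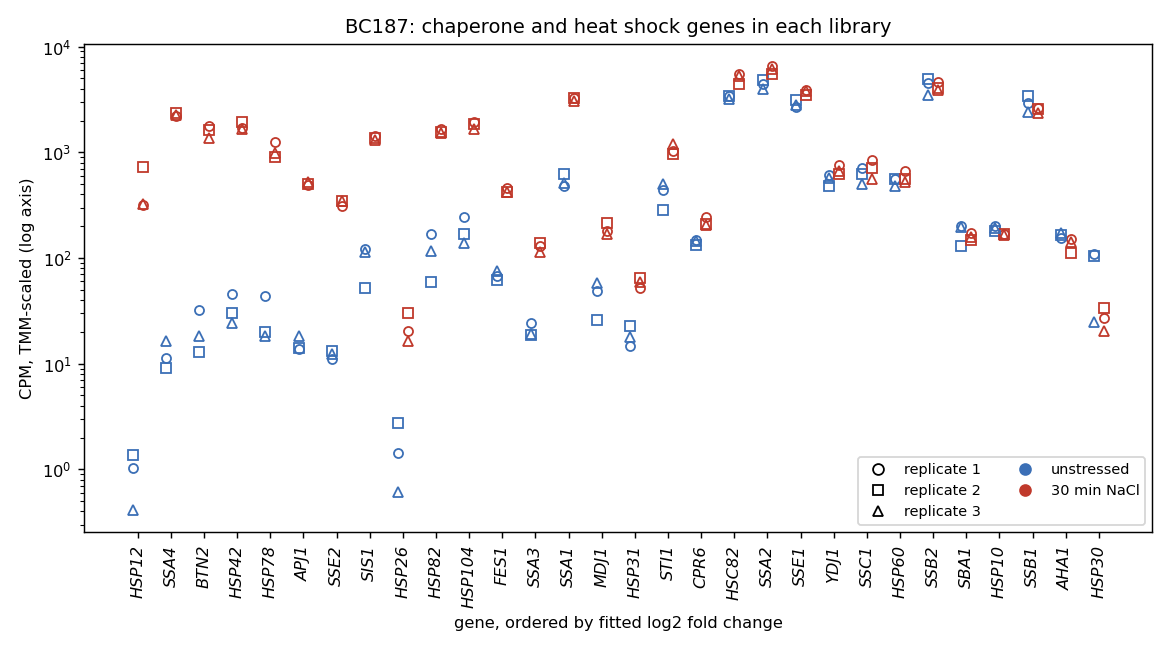
CPM on the TMM scale (log axis) of the 30 chaperone and heat shock genes in the 3 unstressed BC187 libraries (blue) and the 3 at 30 min (red), 1 point per library, with genes ordered by fitted log2 fold change from HSP12 (8.90) to HSP30 (-1.48). The red and blue points lie apart for 22 members in the higher direction, and the spread between replicates narrows in salt for SSA4 and SIS1.

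Genes of small hydrophilic stress proteins, which protect dry or osmotically stressed cells, had a higher list median still. Of 10, 7 were called higher (70.0%, beside 18.2% of all genes) and none lower, with a median log2 fold change of 2.32. TMA10 went from 1.23, 0.82 and 1.44 to 158, 214 and 177 CPM, a log2 fold change of 7.25 ± 0.47. RTC3 went from 4.73, 5.22 and 2.47 to 404, 580 and 429 CPM (6.83 ± 0.38). DDR2 had 0 counts in every unstressed library and 12, 37 and 18 in salt, at least 22.7-fold higher when set against 3 counts over the unstressed group, and the list median is the same with DDR2 at that bound. HSP12 belongs to this list as well as to the chaperones. HOR7 (2.36), GRE1 (2.28) and STF2 (1.45) were called too, while SIP18, NOP6 and MOH1 were not. Replicate 2 was the highest salt library for 9 of the 10, and its part in the rises was not tested.

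Storage carbohydrate genes rose on both the making and the breaking side. In the trehalose list, whose sugar stabilises proteins and membranes, 8 of 10 members were called higher and none lower (median 1.34). TSL1, a regulatory subunit of the trehalose synthase complex, went from 19.3, 20.1 and 8.02 to 239, 456 and 266 CPM, a log2 fold change of 4.32 ± 0.35. The catalytic subunits TPS1 (2.64) and TPS2 (2.83) and the trehalase NTH1 (2.11) rose together. In the glycogen list 10 of 12 were called higher (83.3%, beside 18.2% of all genes), with a median of 2.16. They included the synthase GSY1 (3.20) and the branching enzyme GLC3 (2.73), which make the polymer, and the phosphorylase GPH1 (2.21), which breaks it. The exceptions were PIG1 (-0.72) and GAC1 (-1.11), regulatory subunits of protein phosphatase 1, both called lower (16.7% of the list, beside 15.8% of all genes). Replicate 2 was the highest salt library for 9 of 10 trehalose and 9 of 12 glycogen genes, beside 2270 of the 5997 genes tested. Calls without replicate 2 are not given here for these lists.

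The glycerol genes showed a sharp split between inducible and standing enzymes. GPD1, glycerol 3-phosphate dehydrogenase and the first step from glycolysis, went from 129, 177 and 95.4 to 1897, 2356 and 1734 CPM, a log2 fold change of 3.91 ± 0.24 (edgeR adjusted p = 9.83e-14). GPP2, the phosphatase that completes the path, went from 22.6, 24.2 and 21.4 to 876, 1259 and 843 CPM (5.44 ± 0.31). STL1, which takes glycerol back in, went from 7.82, 9.62 and 9.67 to 319, 488 and 294 CPM (5.33 ± 0.36). All salt libraries were many times above all unstressed ones for these 3 genes. Their partner enzymes did not pass the test: GPD2 had a log2 fold change of 0.00 ± 0.21 and GPP1 of -0.45 ± 0.19. The glycerol channel FPS1 (-0.24) did not pass it either, and its activator ASK10 (-0.63) was called lower. Of the 15 genes of the list, 7 were called higher (46.7%, beside 18.2% of all genes) and 2 lower (13.3%, beside 15.8%). The median was 0.33.

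The same split ran through carbon metabolism. Pentose phosphate genes supply NADPH and ribose. Of 11, 4 were called higher (36.4%, beside 18.2% of all genes) and 2 lower (18.2%, beside 15.8%). The 4 were GND2 (5.04), NQM1 (4.38), TKL2 (4.06) and SOL4 (3.67), each the minor copy of a duplicated enzyme. GND2 went from 2.47, 3.85 and 5.97 to 124, 151 and 127 CPM. The major copies GND1 (-0.48), TAL1 (-0.03) and TKL1 (-0.08) were not called, SOL3 (-0.54) was called lower, and ZWF1, the entry enzyme, was not called at -0.35.

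Among 24 glycolysis and fermentation genes, 7 were called higher (29.2%, beside 18.2% of all genes) and 2 lower (8.33%, beside 15.8%). The glucose-phosphorylating enzymes GLK1 (4.53), HXK1 (4.43) and EMI2 (3.16) rose, while HXK2, the main hexokinase in glucose, stayed near its starting level at -0.11 ± 0.19. HXK1 went from 2.88, 6.05 and 1.23 to 49.5, 114 and 52.0 CPM, with replicate 2 high in both groups. ENO1 (-1.01) and TDH1 (-1.05), an enolase and a glyceraldehyde 3-phosphate dehydrogenase, were the members called lower. Replicate 2 was the highest salt library for 20 of the 24 genes.

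In respiration, CYC7, the stress form of cytochrome c, went from 2.26, 0.28 and 2.47 to 122, 161 and 110 CPM (log2 fold change 6.26 ± 0.49), and its usual form CYC1 was called lower at -0.58. COX5B (0.98) and COX5A (-0.61), alternative subunits of cytochrome c oxidase, parted likewise. Over the 32 oxidative phosphorylation genes 5 were higher and 8 lower. The share higher was 15.6%, near the 18.2% of all genes, and the share lower was above the 15.8% of all genes. Both members rose in 2 of the pairs plotted: glycogen synthase GSY1 (3.20) and GSY2 (1.93), and HSP82 and HSC82 (0.60). The pairs plotted were picked after their values were seen, so they describe a pattern and do not test it.

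**Figure D2:**
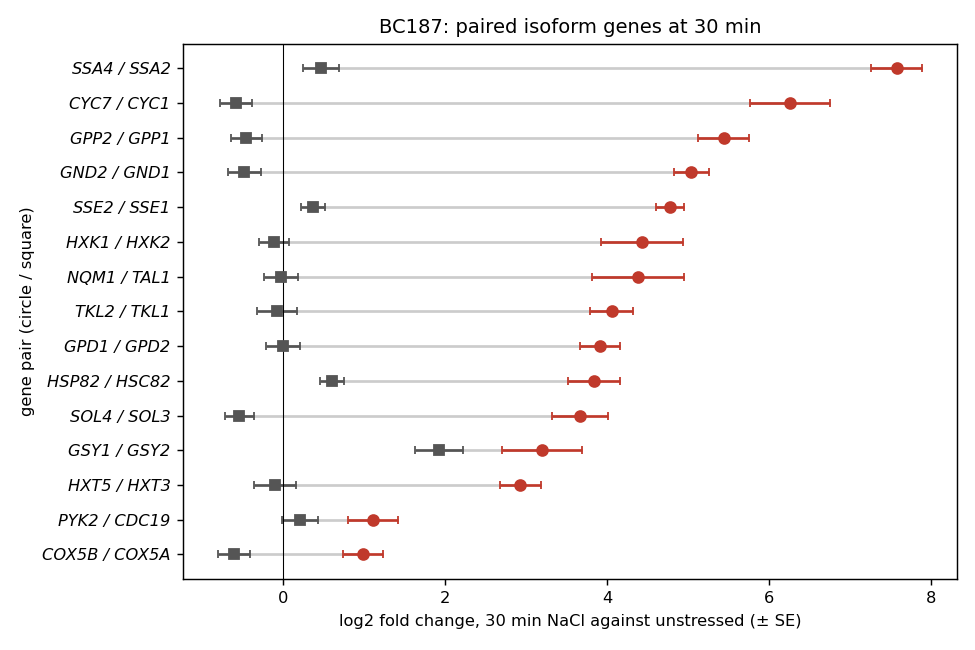
Fitted log2 fold change at 30 min (± SE) of 15 pairs of isoform genes in BC187, the first named gene as a red circle and the second as a grey square. The circles run from 0.98 (COX5B) to 7.57 (SSA4), and the squares from -0.61 (COX5A) to 1.93 (GSY2). The pairs were picked after their values were seen.

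CTT1, the cytosolic catalase, went from 8.64, 10.4 and 6.38 to 296, 514 and 255 CPM, a log2 fold change of 5.36 ± 0.33. With it, 5 of 23 redox genes were called higher (21.7%, near the 18.2% of all genes), including the peroxiredoxins PRX1 (2.45) and TSA2 (2.16), and 2 lower, including the abundant thiol peroxidase AHP1 (-0.94). Of 20 aldehyde and carbonyl metabolism genes, 9 were higher (45.0%) and 3 lower (15.0%, near the 15.8% of all genes). ALD3, a cytosolic aldehyde dehydrogenase, rose by 3.58 and GRE2, a methylglyoxal reductase, by 2.45. ALD3 shares sequence with ALD2, and 77.5% of its 100-base windows occur once in the genome.

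The sodium and potassium transporters moved little as a list, with 3 of 22 called higher and 3 lower (median 0.11). Each share was 13.6%, below the 18.2% and 15.8% of all genes. ENA1, the sodium export ATPase, was at 14.2, 18.1 and 12.1 CPM before salt and 75.6, 140 and 66.5 CPM after it, with a log2 fold change of 2.63 ± 0.23 (edgeR adjusted p = 1.17e-10). ENA1 belongs to an array of near-identical copies and only 14.8% of its 100-base windows are unique. Its level is therefore uncertain. With ENA1, ENA2 and ENA5 summed, an alternative chosen after the data were seen, the counts went from 214, 185 and 215 to 556, 922 and 489, a log2 fold change of 1.67 ± 0.21. ENA5 alone rose by 0.82 ± 0.23. NHA1, a sodium/proton antiporter of the plasma membrane, was called lower at -0.43 ± 0.15. TRK1, the main potassium importer, fell from 164, 134 and 169 to 73.4, 60.8 and 70.8 CPM (-1.19), and KHA1, a putative potassium/proton antiporter, was called lower at -1.42.

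Of 24 HOG pathway genes, 8 were called lower (33.3%, beside 15.8% of all genes) and 4 higher (16.7%, beside 18.2%), with a median of -0.28. The lower ones included the osmosensors HKR1 (-1.10) and MSB2 (-0.79), the kinase SSK2 (-0.79) and the phosphatase PTC2 (-0.95). HOG1 (-0.27) and PBS2 (-0.29), the kinases at the end of the cascade, did not pass the test. The higher ones were RCK1 (1.63), OPY2 (0.90), STE11 (0.75) and SSK1 (0.75). In the calcium list 3 of 19 were higher and 3 lower, 15.8% each and near the shares of all genes. CMK2, a calmodulin-dependent kinase, fell from 325, 236 and 180 to 52.3, 83.5 and 46.7 CPM (-2.03 ± 0.22), while the calcium pump PMC1 rose by 0.84.

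Of 23 stress transcription factors, 12 were called higher (52.2%, beside 18.2% of all genes) and 6 lower (26.1%, beside 15.8%). The repressor XBP1 rose by 4.16 on the log2 scale, USV1 by 2.56 and RPN4, the activator of proteasome genes, by 2.39. The 31 proteasome genes themselves were nearly flat at 30 min, with 1 higher, 1 lower and a median of 0.01. The messages of the factors named in the background moved less than XBP1: HSF1 rose by 0.78 and MSN2 by 0.65, and MSN4 (0.45) was not called. CYC8 (-1.26) and TUP1 (-0.93), which form the general corepressor complex, fell together. CYC8 went from 190, 209 and 273 to 83.6, 86.8 and 110 CPM without overlap.

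Histone genes made the clearest decline. Of 10, 8 were called lower (beside 15.8% of all genes) and none higher, with a median of -1.0. All 3 salt libraries lay below all 3 unstressed ones for 8 (beside 25.6% of all genes). HHF2, a histone H4 gene, fell from 597, 540 and 513 to 146, 154 and 120 CPM, a log2 fold change of -1.97 ± 0.12 (edgeR adjusted p = 7.77e-14). HTB1, a histone H2B gene, fell from 720, 845 and 690 to 260, 285 and 239 CPM (-1.52 ± 0.14). The members not called were the linker histone HHO1 (0.23) and the variant HTZ1 (-0.26), which are not core histones made for replication. Among 26 cyclin and cell cycle regulators 10 were lower (38.5%, beside 15.8% of all genes) and 2 higher (7.69%, beside 18.2%). ASH1, which acts in daughter cells after division, fell from 88.4, 108 and 66.0 to 19.7, 17.8 and 16.1 CPM (-2.28). The G1 cyclins CLN1 (-1.05), CLN3 (-0.93) and CLN2 (-0.80) and the G1 repressor WHI5 (-1.17) fell, and SWE1, the kinase that delays entry into mitosis, rose by 0.69.

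Genes for making ribosomes were only slightly lower at 30 min. Of 72 ribosome assembly genes 11 were called lower and none higher, 15.3% of the list beside 15.8% of all genes tested, and their median was -0.15. NSR1, a nucleolar protein of pre-rRNA processing, went from 481, 645 and 514 to 319, 339 and 290 CPM (-0.78 ± 0.25). NOP1, the fibrillarin of the nucleolus, was at -0.99 ± 0.25 and RRP9 at -0.84. The list medians of cultures 1, 2 and 3 were -0.20, -0.02 and -0.23. Unstressed replicate 2 was the lowest of the 3 for 75% of these genes, beside 37.3% of all genes. Without replicate 1, 2 or 3 the number called lower was 9, 4 and 6. Ribosomal protein genes fell more often. Of 81 for the large subunit 30 were lower and 1 higher (median -0.34), and of 57 for the small subunit 21 were lower and none higher (median -0.44). RPL15B (0.66) was the exception, and RPS10A (-0.96) and RPL23A (-0.94) were among the furthest down. Of the 138 ribosomal protein genes, 15 have under 90% unique windows, so that counts may be split between their copies.

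**Figure D3:**
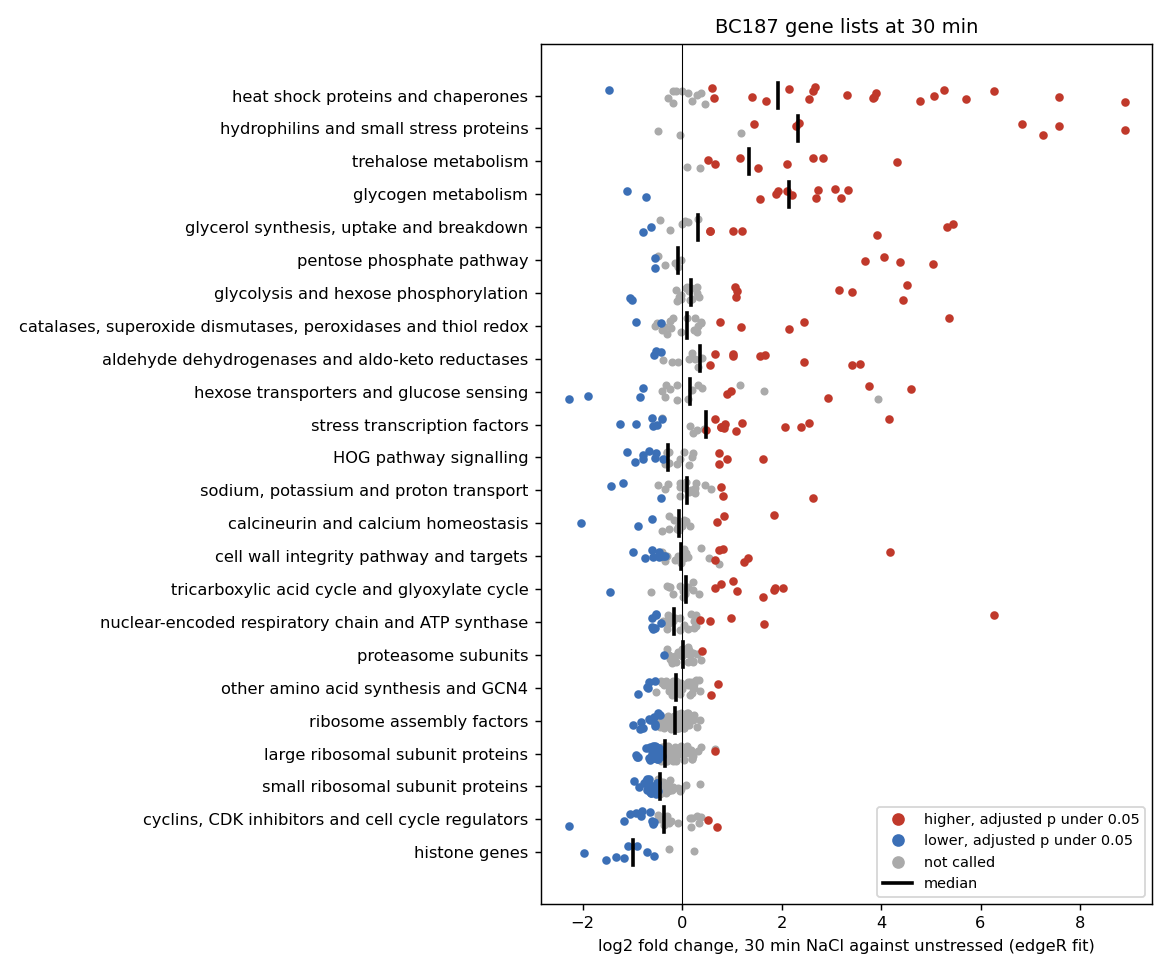
Fitted log2 fold change at 30 min of the genes of 24 lists in BC187, 1 point per gene, red where called higher, blue where called lower and grey where not called, with a black bar at the list median. DDR2 and HXT14, with 0 unstressed counts, are drawn at fitted values that depend on the prior count and are no bounds. The chaperone (1.93), hydrophilic stress protein (2.32) and glycogen (2.16) lists lie furthest to the right, and the histone list (-1.0) furthest to the left.

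Outside the lists given so far, the 12 largest rises also included MPC3, a subunit of the mitochondrial pyruvate carrier. It went from 3.29, 1.92 and 2.67 to 467, 595 and 506 CPM (7.59 ± 0.31). PUT4, the proline permease, went from 1.44, 2.20 and 1.03 to 86.7, 159 and 67.1 CPM (6.06 ± 0.37). YHR033W (7.20) and YER097W (5.55), whose roles are left aside here, and PHM7 (6.04), of the phosphate list given further on, complete the set. All salt libraries lay above all unstressed ones for these genes.

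The largest falls were led by YOR385W, from 137, 156 and 89.7 to 9.09, 19.2 and 14.7 CPM (-3.15 ± 0.26). MUP3, a low-affinity methionine permease, fell by 3.01 on the log2 scale. TPO2, a polyamine exporter, fell from 310, 362 and 169 to 40.4, 35.4 and 35.6 CPM (-2.85), with 74.6% of its windows unique. BSC1 (-3.14) and PRM7 (-2.22) were highest in replicate 2 both before and after salt, and both missed the threshold in a fit to the 6 libraries with no replicate block (adjusted p = 0.0555 and 0.176). Parts of the mitochondrion were also among the 12, with MRS1 (-2.0), a splicing factor for mitochondrial introns, the import chaperone TIM10 (-1.96) and the ribosomal protein MRPL49 (-1.94).

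The response of BC187 was tested directly against the mean response of the other 3 strains. Of 5997 genes, 125 differed (2.08%), 72 with a more positive change in BC187 (1.2%) and 53 with a more negative one (0.884%). Upper-quartile scaling gave 60 and 101 and library totals 46 and 61. The counts also depended on each culture: without replicate 1, 2 or 3 they came to 59, 44 and 54 in all, with 40, 24 and 36 more positive. Chaperones were frequent among the former: 11 of the 30 had a greater response in BC187 and none a lesser one. BTN2 differed by 2.20 ± 0.41 (edgeR adjusted p = 0.00252), with log2 fold changes of 6.27 in BC187, 3.79 in BY4743, 4.01 in NCYC3290 and 4.43 in YPS128. SIS1 differed by 1.59, SSA4 by 1.58, HSP78 by 1.75, HSP104 by 1.43 and HSP82 by 1.29. Unstressed replicate 2 was the lowest of the 3 for 12 of the 30 chaperones (40.0%, beside 37.3% of all genes), and without replicate 2 the number with a greater response was 4.

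Of the storage and sugar lists, 2 of 10 trehalose, 2 of 12 glycogen and 3 of 24 glycolysis genes had a greater response than the mean of the others and none a lesser one. TSL1 responded by 2.31 ± 0.38 more than the mean of the others, with log2 fold changes of 4.32 in BC187, 4.50 in BY4743, 1.66 in NCYC3290 and -0.12 in YPS128. The order thus put BC187 beside the laboratory strain, from which it did not differ beyond error (difference -0.17 ± 0.45). GPP2 had the same order, with 5.44, 5.59, 3.49 and 3.02, and a difference from the mean of 1.40 ± 0.32. PUT4, the proline permease and the most divergent of the genes named on the higher side at 3.03 ± 0.51, was at 6.06, 6.03, 1.85 and 1.18.

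Other genes rose in some strains and did not pass the test in BC187. EST3, a telomerase subunit, was at 15.4, 14.3 and 17.5 CPM before salt and 18.6, 12.9 and 18.4 after it, a log2 fold change of 0.08 ± 0.24, against 5.71 in NCYC3290, 3.41 in YPS128 and -0.36 in BY4743. Its difference from the mean was -2.84 ± 0.28 (edgeR adjusted p = 1.53e-07). YDR262W was at -0.10 in BC187 and at 2.91, 2.77 and 0.99 in NCYC3290, YPS128 and BY4743. KHA1 and HHF2 fell further in BC187 than in the mean of the others, by 1.13 and 0.70 on the log2 scale.

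Against BY4743 alone, 1788 genes differed (29.8%), 905 with a more positive change in BC187 (15.1%) and 883 with a more negative one (14.7%). Scaling by library totals changed that split to 575 and 1250. Ribosome assembly genes were the plainest case, since 69 of 72 had a higher log2 change in BC187, and their median was -0.15 in BC187 and -1.58 in BY4743 (NCYC3290 -0.25, YPS128 -0.23). NSR1 was at -0.78 in BC187 and -3.58 in BY4743, a difference of 2.80 ± 0.37 (edgeR adjusted p = 2.39e-06). Chaperones differed in the same direction, as 11 of 30 had a more positive change in BC187 and none a more negative one, with APJ1 differing by 2.39 ± 0.29. Without replicate 2 that number was 7, and with library totals 6.

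Several osmotic genes rose less than in BY4743. STL1 differed by -2.89 ± 0.49, GPD1 by -1.52 ± 0.31 and ENA1 by -1.71 ± 0.30 (with the copies summed, -1.76 ± 0.29), and 6 of the 15 glycerol genes were lower in this comparison. CTT1 differed by -1.66, HXT5, a hexose transporter made when glucose is scarce, by -3.68 and ALD3 by -4.02. The starting levels of the strains differ as well, and the test concerns the change within each strain.

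From 30 min to 3 h the programs went separate ways in BC187. In a direct test of these time points 3144 genes differed (52.4%), 1718 of them higher at 3 h (28.6%) and 1426 lower (23.8%), and with library totals the counts were 2234 and 811. Chaperones came down: 22 of 30 were lower at 3 h than at 30 min, and 2, HSP12 and HSP31, were higher. BTN2 was lower by 2.81 ± 0.34 on the log2 scale, APJ1 by 2.71 and SIS1 by 2.66. Their log2 fold changes against the unstressed libraries, which both time points share, were 3.46, 2.35 and 1.23 at 3 h.

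Of the 15 glycerol genes 7 were higher at 3 h than at 30 min and none lower. GPD1 and GPP2 were not among them. GPD1 changed by -0.23 ± 0.22 and GPP2 by -0.27 ± 0.25 between 30 min and 3 h. ENA1 kept rising, by 2.06 ± 0.20 (2.01 ± 0.21 with the copies summed). Ribosome assembly genes were all lower at 3 h than at 30 min by the test, 72 of 72, and their median against unstressed went from -0.15 to -1.59. Of 45 amino acid synthesis genes 37 were higher at 3 h than at 30 min and none lower, with large rises of the arginine enzymes ARG1 (5.33 on the log2 scale), ARG4 (4.72) and ARG3 (4.66). At 30 min these 3 had stood at 0.58, -0.03 and -0.20.

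**Figure D4:**
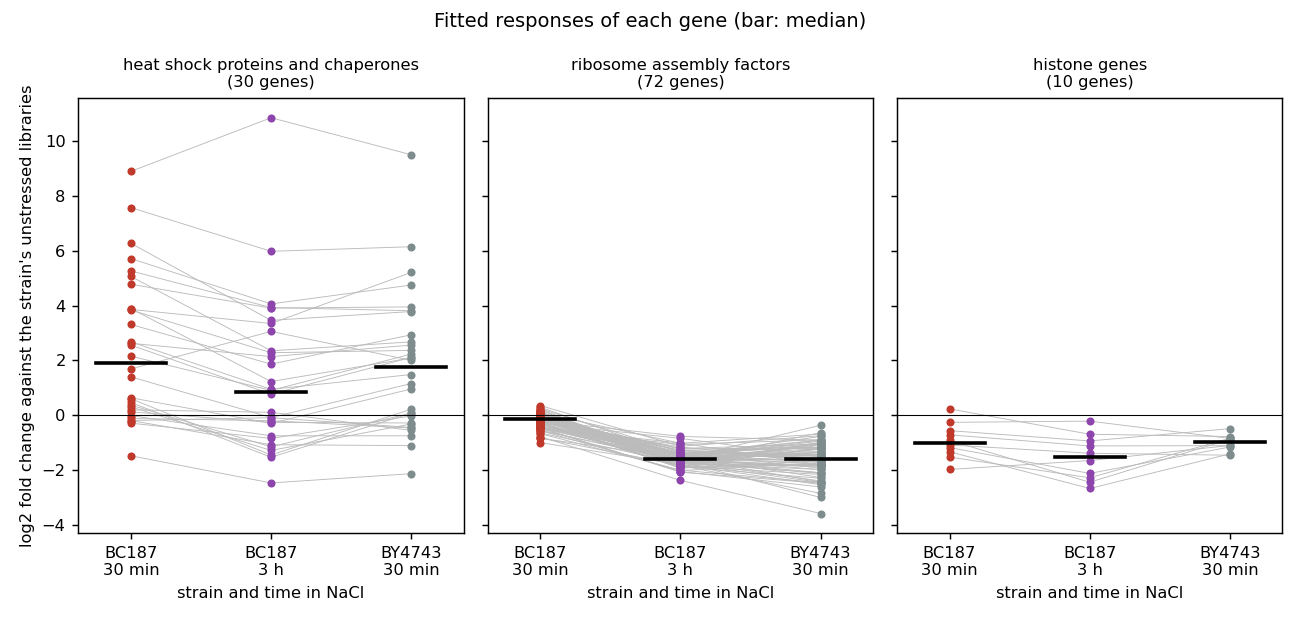
Fitted log2 fold change against the unstressed libraries of the same strain for 30 chaperone, 72 ribosome assembly and 10 histone genes in BC187 at 30 min, BC187 at 3 h and BY4743 at 30 min, with 1 line per gene and a bar at the median. The ribosome assembly medians are -0.15, -1.59 and -1.58, so that BC187 at 30 min stands above the other columns, and the chaperone medians are 1.93, 0.84 and 1.75.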

How the data were processed

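The authors deposited raw counts per gene, made from rRNA-depleted, stranded, single-end libraries that were trimmed with Trimmomatic, mapped with bwa-mem to the S288c reference R64-1-1 and counted with HT-Seq. Strand and multiple-mapping settings are not given in the sources used here, so antisense, overlapping and near-identical genes are uncertain. Of 6717 IDs, 6025 matched the R64 annotation, and 0.117% of counts lay on the others. BC187 libraries of the comparison held 4419322 to 5253590 counts.

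The analysis used R 4.3.3, edgeR 4.0.16 and limma 3.58.1. After filterByExpr over 12 strain-by-time groups (5997 genes) and TMM scaling, robust quasi-likelihood models with group and replicate number were fitted to 34 libraries, leaving out YPS128 replicate 3 at 3 h. P-values were adjusted by Benjamini-Hochberg over all genes tested, with a threshold of 0.05. The biological coefficient of variation was 15.8%. CPM use TMM-scaled library sizes, and values per culture a prior count of 2. Uniqueness is the share of a gene's 100-base windows that occur once in R64. The scripts were tested on simulated counts.

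Within a strain, the replicate number marks 1 culture sampled repeatedly, per the labels. The paper states that the strains were grown side by side within each replicate. The same number therefore also covers cultures of the other strains. The replicate term of the main fit was shared by all strains and did not pair each culture with itself. A block for each culture was fitted only as an alternative. Deviations of same-numbered BC187 libraries from their group means correlated at 0.141, 0.162 and 0.199, and those of other pairs at -0.186 to 0.016. Deviations from a shared mean are tied to one another. The same-numbered and other values are therefore not independent, and they do not test the pairing.

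Genes were named by the 12 largest rises and falls past the threshold with at least 20 mean counts and 1 sign in all cultures, the 5 largest in each direction of each other comparison, up to 4 called members per list with members whose role calls for a value, and the ENA genes and NHA1. A gene that the rule names is not reported here. Isoform pairs were chosen after values were seen. Members and lists were chosen with earlier results of these data known. Lists are described by counts and medians, with no test. Alternatives were DESeq2 1.42.0 (size factors and Wald test), upper-quartile and library-total scaling, other filters, blocks and library sets, and each BC187 culture left out. Promoter windows were read from the R64 genome.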

Additional observations from a re-analysis of the deposited data

Results flagged for a closer look

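Each result here is a gene whose 30 min response in BC187 differed from another response by the test of the difference itself (edgeR quasi-likelihood, Benjamini-Hochberg adjusted). They are the 5 largest in each direction, so their sizes are selected.

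Against the mean response of the other 3 strains, the log2 difference was 3.03 for PUT4 (adjusted p = 0.000975), 3.02 for CYC7, 2.74 for YHR033W, 2.54 for ATG34 and 2.32 for HXK1. On the lower side it was -2.84 for EST3 and -2.32 for YDR262W (adjusted p = 1.53e-07 for both), -2.01 for PRM5, -1.59 for BNA2 and -1.58 for YER187W. CYC7 rests on 2.26, 0.28 and 2.47 CPM in the unstressed BC187 libraries, and ATG34 on 1.23, 1.65 and 1.65 CPM. PRM5, a gene of the cell wall response, was at -0.61 in BC187 and at 0.80 in BY4743, 1.37 in NCYC3290 and 2.01 in YPS128. The YPS128 value was not called (edgeR adjusted p = 0.102), and its 2 cultures were at 2.62 and 0.36.

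Against BY4743, the log2 difference was 3.32 for ATG31, 3.13 for RAD7, 3.02 for SPL2, 2.82 for YHR033W and 2.80 for NSR1. ATG31, an autophagy gene, was at 4.56 in BC187, 1.24 in BY4743, 4.83 in NCYC3290 and 4.36 in YPS128. RAD7, a nucleotide excision repair gene, was at 3.39, 0.26, 3.50 and 3.51 in the same order. For both genes the BY4743 response was therefore the low one. The lower side held FMP45 (-4.65), HBT1 (-4.56), SPS100 (-4.04), ALD3 (-4.02) and MTL1 (-3.92, adjusted p = 0.0244). The MTL1 value rests on 1 BY4743 culture, since the log2 changes of the 3 cultures were 6.06, 0.98 and 1.80. HBT1 was at 0.77 in BC187, 5.33 in BY4743, 0.41 in NCYC3290 and 0.43 in YPS128. An annotated antisense transcript covers 946 bases of SPS100, so its strand is uncertain.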

How the results depend on the processing

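No gene named for the largest changes or differences changed sign under any alternative. For genes named only as list members the signs were not compared. The balance of higher and lower calls turned with the scaling. Upper-quartile gave 1027 higher and 1113 lower at 30 min (main 1092 and 945), and DESeq2's size factors 837 and 956 against BY4743 (main 905 and 883). Depth and 3 cultures limit genes near the threshold, and the median of all genes moved by -0.0432 to 0.026 (log2) over the scalings. Without 1 culture, all genes called ran from 1287 to 1506 of 2037 and those lower from 490 to 677 of 945. Genes differing from the mean of the other strains ran from 44 to 59 of 125 (higher 24 to 40 of 72, lower 18 to 20 of 53), chaperones with a greater response from 4 to 8 of 11 against that mean and from 7 to 9 of 11 against BY4743, and ribosome assembly genes lower at 30 min from 4 to 9 of 11. At an adjusted p under 0.01, 550 genes and 4 ribosome assembly genes were lower. Against the other strains, DESeq2's Wald test called 213 genes (107 lower), upper-quartile scaling called 60 higher and 101 lower, and library totals 46 and 61. With library totals, 575 genes were higher and 1250 lower than in BY4743 (main 905 and 883), 811 were lower and 2234 higher at 3 h than at 30 min (main 1426 and 1718), and 6 chaperones exceeded BY4743. A block for each culture left 35 genes lower than in the other strains. With only the 6 BC187 libraries and the replicate block, 2379 genes were called and 19 ribosome assembly genes were lower, and with no replicate block the 34 libraries gave 1843 calls. Among the genes named for the largest changes or differences, 14 values missed the threshold while keeping their direction. BSC1 and PRM7 missed it in the fit to the 6 libraries with no block. CYC7, ATG34, HXK1, BNA2, YER187W and MTL1 missed it in their differences between strains when 1 culture was left out. The causes were not tested.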

Other observations

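Other lists of BC187 genes are given here beside the shares of all genes called at 30 min, 18.2% higher and 15.8% lower. Of 28 iron genes, 9 were lower and 2 higher by the edgeR quasi-likelihood test, HMX1, a haem oxygenase, being higher at 2.42. Unstressed replicate 2 was the lowest of the 3 for 64.3% of this list, beside 37.3% of all genes. The calls of this list without replicate 2 are not given here. The shares of the next pair of lists were near those of all genes. Of 23 phosphate genes, 5 were higher (21.7%) and 4 lower (17.4%). PHM7 rose by 6.04 and PHM8, a nucleotidase, by 3.85, and PHO84, the high-affinity phosphate transporter, was lower at -0.98. Among 22 hexose transport and glucose sensing genes 5 were higher (22.7%) and 4 lower (18.2%). GAL2 (3.75) and HXT5 (2.93) rose, and HXT13 (-2.28) and HXT17 (-1.89) fell, the latter pair also lower than the mean response of the other 3 strains by 1.70 and 1.51 on the log2 scale. HXT17 went from 8.84, 16.5 and 9.67 to 3.33, 2.58 and 3.22 CPM.

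Of 24 genes of the citric acid cycle, the glyoxylate shunt and gluconeogenesis, 8 were higher and 1 lower. FBP1, fructose 1,6-bisphosphatase, rose by 2.02 and MLS1, malate synthase, by 1.87, while ACO1, aconitase, fell from 764, 722 and 640 to 308, 193 and 279 CPM (-1.44). FUS1, given with the mating genes above, had a log2 fold change of 2.68 ± 0.27.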
